A study of Mus musculus with 2 samples.

Results

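The microRNA genes near STAT5 binding regions were examined in effector CD8 T cells before and after IL-2. They were taken from the authors' list of genes near binding regions as every gene whose name begins with Mir and a digit, which includes the host transcripts Mir17hg and Mir22hg. The rule found 78 of the 4934 listed genes. MicroRNA genes that share a region were merged, which gave 60 loci with 91 distinct regions. Of these loci, 49 held 1 microRNA gene and 11 held several. STAT5 binding was measured by ChIP-seq, the sequencing of DNA pulled down with an antibody, here one against STAT5. The cells were C57BL/6 OT-I CD8 T cells, whose transgenic T cell receptor recognises the ovalbumin peptide SIINFEKL. According to the labels, mice received these cells by adoptive transfer, the cells were primed in vivo with that peptide plus agonists of CD134 and CD137, and they were sorted from spleens 4 days later. After sorting, the cells of the control group (1 library) were left untreated, and those of the IL-2 group (1 library) were cultured for 1 hour with the cytokine at 0.5 µg/ml. Both groups share the priming and the costimulatory agonists. The labels do not say how many mice gave the cells, and this assay holds no RNA by which the sorted cell type could be checked.

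MicroRNAs are short RNAs cut from hairpins in longer transcripts. They guide Argonaute proteins to messenger RNAs, which are then repressed, and most of their target choice is set by the seed, the bases near the 5′ end. Several hairpins often lie in 1 transcript, either a host gene or a transcript of their own, so the start that controls a microRNA can be far from its hairpin. STAT5 is a transcription factor that the IL-2 receptor activates through JAK kinases, and in T cells microRNAs take part in expansion, survival, differentiation and effector function.

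The mature sequences below, credited to RefSeq (GRCm38.p6, the mm10 build), belong to the loci on which the results turn. They show which of the products with a sequence at hand share a seed and which do not. They are written 5′ to 3′ with bases 2 to 8, the seed, in capitals. The first is the product of the locus with the highest mean IL-2 height among those with a T cell literature. The next 6 come from the Mir17 cluster.
miR-155-5p: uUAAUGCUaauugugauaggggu
miR-17-5p: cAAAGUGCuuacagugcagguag
miR-20a-5p: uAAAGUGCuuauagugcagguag
miR-18a-5p: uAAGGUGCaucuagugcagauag
miR-19a-3p: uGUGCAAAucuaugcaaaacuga
miR-19b-3p: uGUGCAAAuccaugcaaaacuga
miR-92a-3p: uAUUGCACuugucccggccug
miR-92b-3p: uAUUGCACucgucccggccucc
miR-15b-5p: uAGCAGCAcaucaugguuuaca
miR-16-5p: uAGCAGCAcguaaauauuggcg
miR-29a-3p: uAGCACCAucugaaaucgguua
miR-29b-3p: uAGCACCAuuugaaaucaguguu
miR-181c-5p: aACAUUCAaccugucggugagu
miR-181d-5p: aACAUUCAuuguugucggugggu
miR-449a-5p: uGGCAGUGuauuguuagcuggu
miR-21a-5p: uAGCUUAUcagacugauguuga
miR-31-5p: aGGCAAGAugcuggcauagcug
miR-146a-5p: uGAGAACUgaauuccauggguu
miR-23a-3p: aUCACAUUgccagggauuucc

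Of the 78 genes, 69 matched the sequence table by gene identifier, and 66 had a mature sequence there. Mir449b had no entry there, so a seed shared by Mir449a and Mir449b could not be counted below. These 66 genes gave 107 mature sequences with 101 different seeds. Only 6 seeds were shared by more than 1 of these sequences, each by a pair: miR-17-5p with miR-20a-5p, miR-19a-3p with miR-19b-3p, miR-92a-3p with miR-92b-3p, miR-15b-5p with miR-16-5p, miR-29a-3p with miR-29b-3p, and miR-181c-5p with miR-181d-5p. For 5 of these pairs both hairpins lie in 1 locus and share 1 STAT5 region. The exception is the seed AUUGCAC, found at 2 loci, Mir92-1 in the Mir17 cluster and Mir92b. Thus few of these sequences shared a seed, and the genes of a shared seed were mostly listed for the same region. How often seeds are shared over all microRNAs was not computed. The hairpins of those 5 pairs lie close together, and loci were formed from genes that share a region. A shared region is therefore no separate result about seeds.

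STAT5 signal was higher with IL-2 at each of the 59 loci used for height summaries, as it was at 100% of all listed genes. Mir101c was left out of these because its control signal was high, and its values are given further on. Heights are the authors' mean peak heights in signal units over the regions of a locus. Control heights ranged from 2 to 11 with a median of 5, and IL-2 heights ranged from 11 to 136 with a median of 23. The highest control height therefore equalled the lowest IL-2 height, and each locus had its own control value below its IL-2 value. Over all 4934 listed genes the medians were 5 and 20.75. For the ratio, 5 was added to the heights of both libraries before division of IL-2 by control, and a ratio of at least 2 was counted. It was reached at 49 of 59 loci (83.1%), against 83.8% of all listed genes, so microRNA loci stood near the background. A ratio of at least 4 was reached at 12 loci (20.3%), against 23.1% of all listed genes, and one of at least 1.5 at 58 loci, against 98.3% of all listed genes. The loci had a median log2 ratio of 1.53, with quartiles of 1.11 and 1.92, and that of all listed genes was 1.41, with quartiles of 1.08 and 1.94. Each group had a single library, so no difference given here has a replicate check or a test.

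Every listed gene had a region called in the IL-2 library, so a higher IL-2 height was favoured by the way genes entered the list. The depth of the libraries is unknown, because the table holds no read counts. When the IL-2 heights were scaled down so that both libraries had the same median over all listed genes, the median log2 ratio of all genes shifted by -1.33. After that scaling 37 of the 59 loci were higher with IL-2 and 22 were higher in control. The share on the IL-2 side was 58.7% over all listed genes. A ratio of at least 2 remained at 4 loci, those of Mir449a, Mir155, Mir1946b and Mir3968, against 5.98% of all listed genes.

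**Figure D1:**
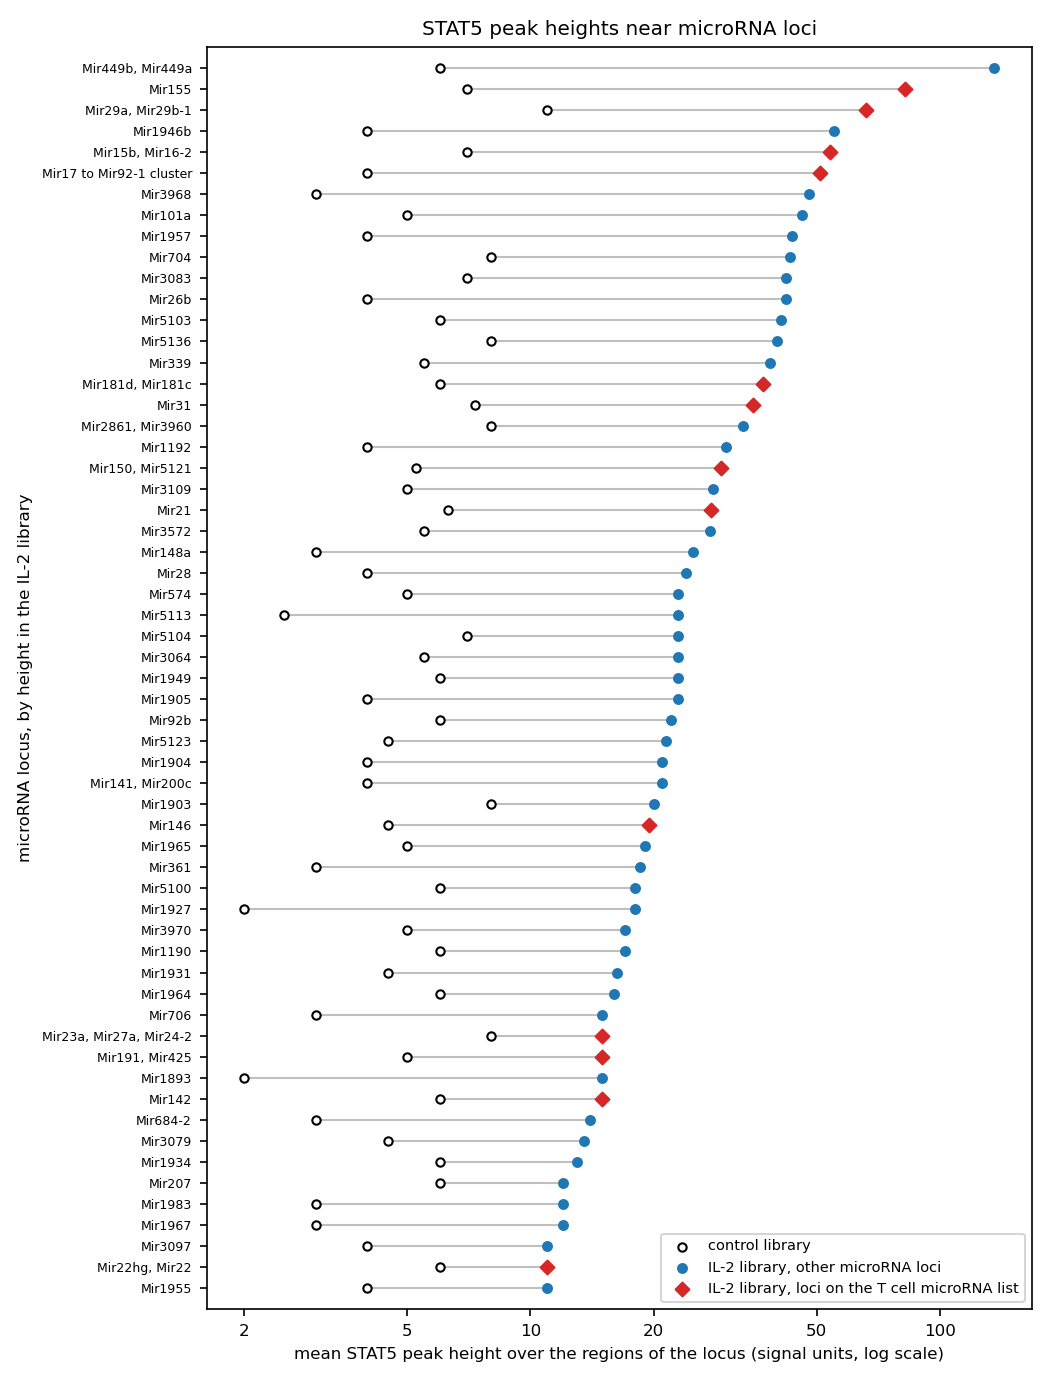
Mean STAT5 peak height (x axis, signal units, log scale) of 59 microRNA loci (y axis) in the control library (open circles) and in the IL-2 library (filled symbols, with diamonds for loci on a list of microRNAs studied in T cells). Control heights lie between 2 and 11, while IL-2 heights spread from 11 at Mir22 and others to 136 at the Mir449 locus.

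**Figure D2:**
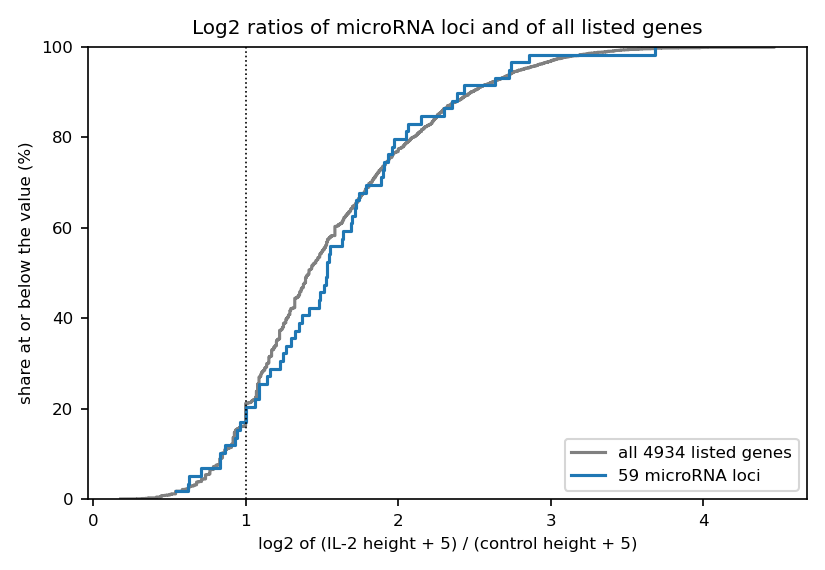
Cumulative share (y axis, percent) of 59 microRNA loci and of all 4934 listed genes by the log2 ratio of IL-2 to control (x axis, 5 added to both heights), with a dotted line at a ratio of 2. The curves run close together, with medians of 1.53 for the loci and 1.41 for all genes.

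With Mir101c left out, the highest signal near a microRNA gene was at the Mir449 locus on chromosome 13. Mir449a and Mir449b lie within Cdc20b and belong to the miR-34 and miR-449 seed family, which is known for roles in cell cycle arrest and in ciliated cells. Their region, centred at chromosome 13 position 113050320, measured 6 in the control library and 136 in the IL-2 library (log2 ratio 3.68). The control value was thus near the median of all listed genes, and the IL-2 value was above that of 99.8% of them. The region was 12786 bp downstream of the start of Mir449a and 3932 bp upstream of the start of Gpx8, so it lay nearer to Gpx8, a peroxidase of the endoplasmic reticulum, than to the microRNAs.

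Mir155 followed in mean height over the regions of a locus, although the highest single region at Mir21 reached 101. The product of Mir155 supports the expansion and effector response of CD8 T cells. It is known to repress Socs1, an inhibitor of cytokine signalling. Mir155, at chromosome 16 from 84714140 to 84714204, had 1 region centred at 84703232. The height of this region was 7 in the control library and 82 in the IL-2 library (log2 ratio 2.86). It was listed for no other gene and lay 10908 bp upstream of the hairpin, which is 9791 bp upstream of the RefSeq start of Mir155hg, the host transcript. The start of Mir155hg itself held no listed region, and Mir155hg is not an entry of the deposited list.

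The Mir17 cluster encodes 6 microRNAs in a row, which promote proliferation and survival of lymphocytes by repressing, among others, Bcl2l11. All 6 hairpins and the host transcript Mir17hg were listed for 1 region on chromosome 14, centred at 115040224. Its height was 4 in control and 51 after IL-2 (log2 ratio 2.64), and no other gene was listed for it. The centre lay 3447 bp upstream of Mir17, the first hairpin, and 4203 bp upstream of Mir92-1, the last. Because these 7 genes share 1 region, their equal values are a single measurement.

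The Mir15b and Mir16-2 hairpins lie within Smc4, a condensin subunit, and their products restrain cell cycle genes and Bcl2. Their region on chromosome 3, centred at 69004384, had 7 in control and 54 after IL-2 (log2 ratio 2.30). It lay 5388 bp upstream of Mir15b. It was also 588 bp upstream of the listed start of Smc4 and 186 bp inside Ift80, a gene of cilium transport on the other strand.

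Mir29a and Mir29b-1 on chromosome 6 had the highest control value among the 59 loci. Their products limit the transcription factors T-bet and Eomes and interferon gamma in T cells. The region, centred at 31072480, measured 11 without and 66 after IL-2 (log2 ratio 2.15). It was listed for no other gene and lay 9387 bp upstream of Mir29b-1. Mir181c and Mir181d on chromosome 8, of the family that tunes T cell receptor signalling, had 6 in control and 37 after IL-2 (log2 ratio 1.93). Their region was 7855 bp upstream of Mir181c and 10264 bp upstream of Nanos3. The Mir29 and Mir181 regions thus resembled that of Mir155 in lying far upstream of their hairpins. This position was not particular to them, since other loci also had such regions, among them Mir339 (10767 bp upstream) and Mir574 (10414 bp upstream).

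Several loci with a T cell literature had more than 1 region, and their means hide unequal heights. Mir21, whose product is abundant in activated T cells, lies at the end of Vmp1 on chromosome 11 and had the largest number of regions of any microRNA gene listed, at 7. Its mean was 6.29 in control and 27.57 after IL-2 (log2 ratio 1.53), and its highest region reached 101. The outermost regions had determined heights, of 6 and 12 at 6862 bp downstream and of 4 and 19 at 9314 bp upstream. One of the 5 regions between them held the peak of 101, and the deposited means do not say which. These 5 include a region centred 66 bp upstream of the Mir21 hairpin.

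Mir31 on chromosome 4, whose product is induced when T cells are stimulated, had 3 regions that were listed for no other gene. Its mean height was 7.33 in control and 35 after IL-2 (log2 ratio 1.70). The highest region reached 62 with IL-2, and the remaining pair summed to 43. The centres lay 902 bp downstream, 714 bp upstream and 7962 bp upstream of the hairpin start. Mir146, the gene of miR-146a, which restrains NF-κB signalling through Traf6 and Irak1, had 2 regions of its own at 4067 and 4931 bp upstream. They averaged 4.5 and 19.5 (log2 ratio 1.37), and the IL-2 heights were 25 and 14 in an order that the deposited list does not give.

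Other microRNAs known from lymphocytes stood low in the order of heights. Mir150, whose product is high in resting lymphocytes and represses Myb, had 3 regions with a mean of 5.33 in control and 14 after IL-2 (log2 ratio 0.88). It shared these with Mir5121, a microRNA gene within Rpl13a, which had a 4th region. That region, with 5 in control and 75 after IL-2, was centred 112 bp inside Flt3l, which encodes a haematopoietic cytokine. The mean of 29.25 at this locus therefore rests on the Flt3l start, and Mir150 itself was not listed for it.

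Mir142, which is specific to blood cells, had 3 regions with a mean of 6 in control and 15 after IL-2 (log2 ratio 0.86). Its IL-2 heights were 15 at 8544 bp upstream, and 17 and 13 at the other two in an undetermined order, so no region of Mir142 reached the median IL-2 height of all listed genes. The cluster of Mir23a, Mir27a and Mir24-2 on chromosome 8, studied as a restraint on cytotoxic T cells, had 8 in control and 15 after IL-2 (log2 ratio 0.62) at 1 region 3894 bp upstream. Mir3074-2, annotated on the opposite strand over Mir24-2, was listed for the same region. Mir191 and Mir425, within Dalrd3, had 5 and 15 (log2 ratio 1.00), and the region centre lay at the first bases of the Mir191 hairpin. Mir22 and its host transcript Mir22hg had 6 and 11 (log2 ratio 0.54), the smallest ratio of the 59 loci, at a region 243 bp from the start of Mir22hg. With the libraries scaled to the same median, the log2 ratio turned towards control at the loci of Mir142 (-0.35), Mir23a (-0.59), Mir191 (-0.22) and Mir22 (-0.52).

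A list of 65 microRNAs and host transcripts studied in T cells, let-7 genes included, had 27 entries in the table. Of all microRNA genes in RefSeq, 6.19% were listed, and the difference in listing was not tested. Among the 27, 21 reached a ratio of at least 2, where the background is 83.8%, and their median log2 ratio was 1.93. Genes of 1 cluster share their value in that count. By locus, 13 of the 59 held an entry of the list. Their control median was 6 and their IL-2 median 29.25, and 10 of the 13 had a ratio of at least 2. That IL-2 median is the mean of the locus of Mir150 and Mir5121, which includes the region at Flt3l. Mir150 alone had 14 after IL-2 and a log2 ratio of 0.88, under a ratio of 2. Its locus is thus among the 10 only through the region of Mir5121 at Flt3l. The other 46 loci had medians of 4.75 and 22.5, and 39 of them had such a ratio. IL-2 heights ran from 11 to 82 at the loci of the list and from 11 to 136 at the other loci, so the sets overlapped.

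The remaining 38 entries had no listed region. Among them were Mir181a-1 and Mir181b-1, Mir146b, Mir221 and Mir222, Mir223, Mir342, and the cluster of Mir182, Mir183 and Mir96. Mir15a and Mir16-1 had none either, while Dleu2, the transcript that carries them, had a region 1349 bp from its start with 6 in control and 19 after IL-2 (log2 ratio 1.13). Of the let-7 family, whose genes fall outside the naming rule used here, Mirlet7g and Mirlet7i were listed. Mirlet7g had 3 regions shared with Wdr82, with a mean of 4.67 in control and 41.33 after IL-2 (log2 ratio 2.26) and a highest region of 91. Mirlet7i had 3 and 20 (log2 ratio 1.64) at a region shared with Mon2. These let-7 heights lay within the range of the other microRNA loci.

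MicroRNAs with less known roles made up most of the loci, and many of their regions were also listed for a host or neighbouring gene. Mir1946b had 4 in control and 55 after IL-2 (log2 ratio 2.74). Its region lay 3448 bp downstream of the microRNA start and 6041 bp upstream of Smarca4, a chromatin remodelling ATPase. Mir3968, within Trim80, had 3 and 48 (log2 ratio 2.73). Its region lay 3972 bp upstream of the microRNA and 10441 bp upstream of Slc16a5, a transporter gene also listed for it. Both regions were thus nearer to the microRNA than to that neighbour. Mir101a, whose product is known to repress Ezh2, had 5 and 46 (log2 ratio 2.35) at a region 2605 bp upstream. Mir1957 lies in the glucose transporter gene Slc2a1, and its 2 regions had a mean of 4 in control and of 43.5 after IL-2, with IL-2 heights of 47 and 40. Mir26b, within the phosphatase gene Ctdsp1, had 4 and 42 (log2 ratio 2.39). Mir148a had 3 and 25 (log2 ratio 1.91) at a region of its own 1578 bp upstream. Mir141 and Mir200c, known from epithelial cells, had 4 and 21 (log2 ratio 1.53). Mir92b, which shares a seed with miR-92a, had 6 and 22 (log2 ratio 1.30), and its region lay 711 bp upstream of Muc1.

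Mir339 had 2 regions, of 4 and 34 at 5073 bp downstream and of 7 and 43 at Gpr146, which encodes a receptor. Mir3083 had 7 and 42 (log2 ratio 1.97) at Cuta. Mir704, within Pdia4, a chaperone gene of the endoplasmic reticulum, had 8 and 43 (log2 ratio 1.89). The regions at Gpr146, Cuta and Pdia4 each lay within 1 kb of the start of that gene. Mir5136 had 8 and 40 (log2 ratio 1.79) at Ints5, Mir5103 had 6 and 41 (log2 ratio 2.06) at 305 bp upstream, and the pair Mir2861 and Mir3960 had 8 and 33 (log2 ratio 1.55) near Sh2d3c. Mir1192, within Klf9, had 4 and 30 (log2 ratio 1.96). All 7 of these loci were above the IL-2 median of all listed genes.

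At several hosts with more than 1 region a single one held most of the signal. The IL-2 heights were 42 and 14 at Mir3109, within Anxa2, and 44 and 11 at Mir3572, within Cnot3, a subunit of a deadenylase complex. At Mir5104, within Zc3h12d, the mean of 3 regions was 23 and the highest was 39. At Mir3064 the IL-2 heights were 31 and 15. Spread was smaller at Mir5123, within B4galt1 (23 and 20), at Mir361, within Chm (21 and 16), and at Mir3079 near Smpd5 (15 and 12). Mir1931, within Cdk17, had 4 regions with a mean of 16.25 and a highest of 21, and Mir706, within Wnk1, had 3 with a mean of 15 and a highest of 19. A gene mean thus stood for unlike regions at some of these loci and for like ones at others. Mean control heights were 5 at Mir3109, 5.5 at Mir3572 and at Mir3064, and 7 at Mir5104. They were 4.5 at Mir5123, 3 at Mir361, 4.5 at Mir3079, 4.5 at Mir1931 and 3 at Mir706. Of these loci only Mir3079 was under a ratio of 2, with a mean of 13.5 after IL-2 (log2 ratio 0.96).

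Among the remaining loci with 1 region, Mir28 (4 and 24), within Lpp, Mir574 (5 and 23), Mir1949 (6 and 23), within Snhg4, Mir1905 (4 and 23), within Mex3a, and Mir1904 (4 and 21), within Pde4d, were just above the IL-2 median of all listed genes. Mir1903 (8 and 20), near Nrp1, Mir1965 (5 and 19), Mir1927 (2 and 18), within Rabgap1l, Mir5100 (6 and 18), at Smcr7, Mir1190 (6 and 17), within Ccdc88c, Mir3970 (5 and 17), within Rnls, and Mir1964 (6 and 16), at Zfp84, were below it. The lowest were Mir1893 (2 and 15), within Epc1, Mir684-2 (3 and 14), Mir1934 (6 and 13), at Eif4a1, Mir1967 (3 and 12), within Urb2, Mir1983 (3 and 12), Mir207 (6 and 12), within Dnaja1, Mir1955 (4 and 11), within Phf21a, and Mir3097 (4 and 11), within Rgs12. In each of these pairs the control height comes first. IL-2 heights from 11 to 15 recurred at 14 loci, which was at or below the lower quartile of all listed genes.

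Most of these regions were not particular to the microRNA gene by the list's own assignment. Of the 89 regions outside Mir101c, 78 (87.6%) were also listed for a gene other than the microRNA genes of the locus. Of all 5703 regions, 30.1% were listed for more than 1 gene of any kind. The first share takes only regions that already have a microRNA gene and leaves out sharing among the microRNA genes of a locus. The 2 shares are therefore not the same measure. Since a microRNA gene inside a host is listed beside that host, part of this sharing follows from the annotation. In 36 of the 78 shared regions the centre was nearer to the start of another listed gene, and 25 lay within 1 kb of such a start. By locus, 22 of 59 had a region within 1 kb of the start of another listed gene. These counts were not taken over all regions. Of all listed genes, 36.6% had a region within 1 kb of their own start, which is a different measure. Examples are Klf9 at Mir1192 (86 bp), Cuta at Mir3083 (138 bp), Gpr146 at Mir339 (155 bp), Tlr6 at Mir574 (130 bp) and Ddx5 at Mir3064 (206 bp). The 8 loci whose regions were listed for no other gene were those of Mir155, Mir29a, Mir17, Mir31, Mir148a, Mir146, Mir1965 and Mir1983. Their control median was 4.75 and their IL-2 median 30, and all 8 had a ratio of at least 2, where the background is 83.8%.

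**Figure D3:**
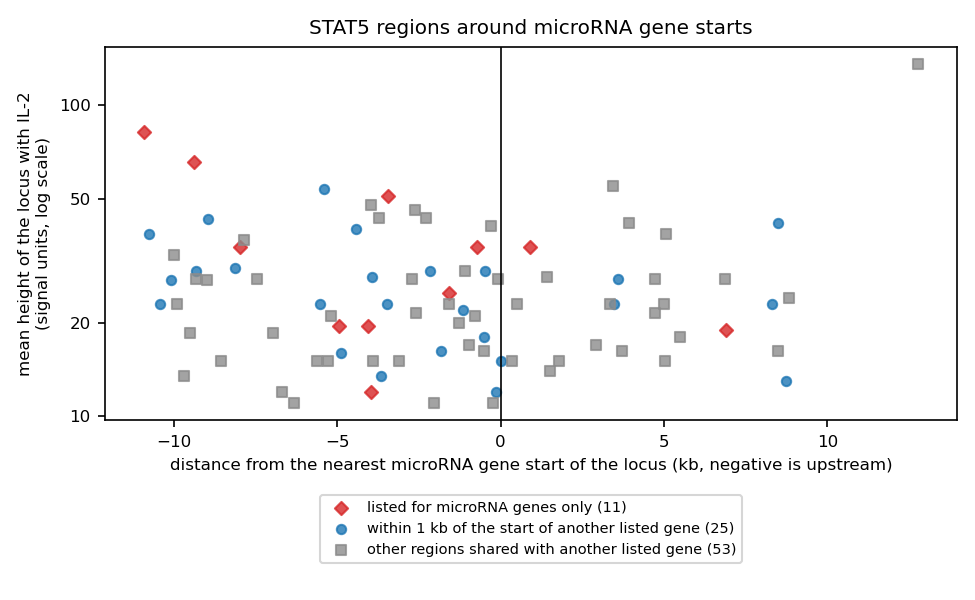
Distance of 89 regions from the nearest microRNA gene start of their locus (x axis, kb, negative values upstream) against the mean IL-2 height of the locus (y axis, signal units, log scale), with symbols by how the region was shared. Of the regions 61 lie upstream and 27 downstream, and the 11 listed for microRNA genes only include the high Mir155 and Mir29 regions far upstream.

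Regions lay upstream of the microRNA more often than downstream. Of the 89 regions, 61 (68.5%) were upstream, 27 downstream and 1 within the hairpin gene. The upstream share over all listed genes was not computed, so whether this share is particular to microRNA genes was not tested. The median distance from the nearest microRNA start was 3975 bp. A region within 1 kb of the start was found at 13 of the 60 loci (21.7%), against 36.6% of all listed genes. Within 5 kb it was found at 39 loci (65.0%), against 56.8% of all listed genes. The RefSeq start of a microRNA gene is a hairpin end. That of most other genes, and of Mir22hg among the 13 loci, is a transcript start. Outside Mir101c, no region of a microRNA locus lay more than 12786 bp from the nearest microRNA start. Long genes were also listed for regions far inside them, such as 443322 bp from the start of Lpp. A locus can also hold several microRNA genes. Neither the 1 kb nor the 5 kb counts therefore measure the same thing in both. Of 1228 microRNA genes in RefSeq, 76 (6.19%) were listed, 74 of them by the rule used here. Of 21900 protein-coding genes, 4187 (19.1%) were listed. Those genes are far longer, and whether gene length bears on the difference in listing was not tested.

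**Figure D4:**
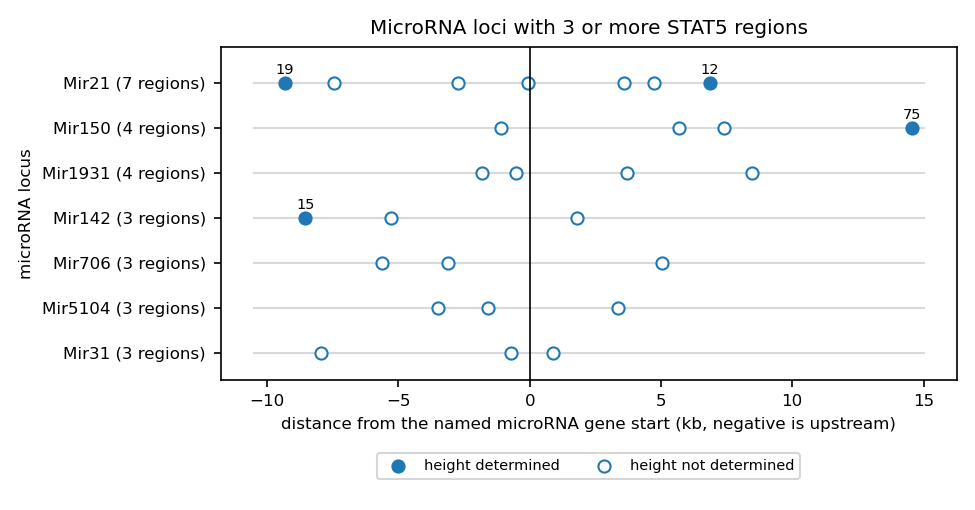
Positions of the regions of the 7 microRNA loci with 3 or more regions (y axis), as distance from the named microRNA gene start (x axis, kb, negative values upstream). Filled circles carry the determined IL-2 height of the region and open circles have a height that the gene means do not determine. The region of 75 on the Mir150 line is the one at Flt3l.

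Some regions of microRNA loci could be set beside a promoter sequence. The RefSeq table of promoters gives 300 bases a start, 250 before and 50 after it, and 9 of its windows, of 7 genes at 6 loci, held the centre of such a region. The motif TTCNNNGAA, the palindromic core to which STAT factors bind, was searched in them. It reads the same on both strands. It was present in 6 of the 9 windows, of 5 genes at 4 loci (Mir339, Mir3083, Mir5113 and Mir1964). It occurred in 8.3% of all 32851 windows, and of the 437 windows that held the centre of any IL-2 region 46.2% did. Some of these windows overlap, because genes can have several starts or divergent neighbours. The windows of Gpr146 at the Mir339 locus and of Cuta at the Mir3083 locus show the motif, in capitals, close to the region centre, and that of Mir22hg is shown as one without it.
Gpr146, chr5:139380389-139380688, plus strand: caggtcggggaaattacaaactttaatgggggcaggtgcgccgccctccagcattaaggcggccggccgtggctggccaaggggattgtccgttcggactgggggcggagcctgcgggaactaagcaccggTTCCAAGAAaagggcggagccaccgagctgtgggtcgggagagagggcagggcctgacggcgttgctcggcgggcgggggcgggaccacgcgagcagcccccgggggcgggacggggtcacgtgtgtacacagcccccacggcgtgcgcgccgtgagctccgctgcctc
Cuta, chr17:26939489-26939788, minus strand: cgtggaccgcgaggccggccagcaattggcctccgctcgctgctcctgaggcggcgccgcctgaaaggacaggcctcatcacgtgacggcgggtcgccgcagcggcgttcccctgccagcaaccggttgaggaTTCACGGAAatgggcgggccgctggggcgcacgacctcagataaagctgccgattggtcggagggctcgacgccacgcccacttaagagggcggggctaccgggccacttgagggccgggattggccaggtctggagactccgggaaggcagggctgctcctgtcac
Mir22hg, chr11:75461289-75461588, plus strand: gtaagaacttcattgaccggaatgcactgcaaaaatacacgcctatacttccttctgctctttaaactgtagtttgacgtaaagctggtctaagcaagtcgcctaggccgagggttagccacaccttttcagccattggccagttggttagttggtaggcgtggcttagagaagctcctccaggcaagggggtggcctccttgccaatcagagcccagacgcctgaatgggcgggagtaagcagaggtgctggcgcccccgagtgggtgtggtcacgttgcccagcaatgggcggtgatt

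The Gpr146 region had a height of 7 in control and 43 after IL-2, and the middle of the motif lay 12 bp from its centre. The Cuta region had 7 and 42, with the motif 35 bp from its centre. At Adsl, in the Mir5113 locus, the region had 4 and 13 and the motif lay 14 bp from its centre. At Zfp84, in the Mir1964 locus, the region had 6 and 16 and the motif lay 113 bp away. Of all regions, 95.5% had their centre at a multiple of 16 bp. Distances shorter than that, here and at Mir191, are therefore not resolved. The windows of Mir22hg (6 and 11) and of Dnaja1 at the Mir207 locus (6 and 12) held no match. A match in these letters describes the sequence and does not show where STAT5 was bound, and no match says only that the letters are not in that window. None of the 61 hairpin sequences of the listed genes held the motif (0 of 61).

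The microRNA machinery was examined with a list of its own. Of 24 genes on a list of processing and effector factors, 7 had a region and 17 had none. Of all protein-coding genes in RefSeq, 19.1% were listed, so most genes had none. Those without a region include Drosha and Dgcr8, which cut the primary transcript, Xpo5, which exports the hairpin, and Dicer1, which makes the final cut. A ratio of at least 2 was found at 6 of the 7, where the background is 83.8%, and the median log2 ratio was 1.26, against 1.41 for all listed genes. Ago2, the Argonaute that cleaves targets, had 3 regions with a mean of 5.33 in control and 34.67 after IL-2 (log2 ratio 1.94) and a highest region of 75. Its partners Tnrc6a and Tnrc6b, scaffolds of repression, had 5 and 19 (log2 ratio 1.26) and 3.5 and 17.75 (log2 ratio 1.42). Tnrc6b hosts Mir5113, and they shared a region with 1 in control and 33 after IL-2. The Mir5113 locus had means of 2.5 in control and 23 after IL-2 (log2 ratio 1.90).

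Ddx5, a helicase that assists Drosha, hosts Mir3064 and had the same regions, with a mean of 5.5 in control and 23 after IL-2 (log2 ratio 1.42). Zc3h12a, which encodes the ribonuclease Regnase-1, had 4 and 16 (log2 ratio 1.22), and Zcchc6, a uridylyl transferase that acts on let-7 precursors, 4 and 14 (log2 ratio 1.08). Hsp90ab1, a chaperone, had 9 and 15 (log2 ratio 0.51), below a ratio of 2. Ago2 was thus the only listed machinery gene with a mean IL-2 height above the upper quartile of all listed genes, which was 33.

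Mir101c stood apart from the other microRNA loci. On chromosome 9 near position 3038669, it was the only microRNA gene with regions called in the control library. Its 2 regions, at 2935 and 8567 bp downstream, averaged 92.5 in the control library and 129.5 in the IL-2 library (log2 ratio 0.46). The highest peak over both libraries was 144, and the deposited list does not say which library held it. The heights of the single regions are therefore not determined. No other gene was listed for these regions. The control value was the highest of all 4934 listed genes and the highest among the other 59 loci was 11.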

How the data were processed

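The authors deposited 1 table of genes near STAT5 regions, whose peak heights are in signal units with a minimum of 0. The submitters' processing notes name BWA and the build mm10. The peak caller, the depth and any scaling are not given here, because the sources used do not state them. The columns used were each library's mean height over the regions of a gene, the highest peak, and the distances of regions to the gene start.

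Region positions were computed from gene start and distance, and 5714 of 5714 intervals had the same position from every gene. Heights of single regions were obtained by solving the gene means as linear equations, which fixed 2487 of 5703 regions and 50 of the 89 at microRNA loci outside Mir101c. The solver was tested on simulated data. Ratios used a pseudocount of 5. A gene was called a host where its RefSeq span (GRCm38.p6) holds all hairpins of a locus, on either strand, and 76 of 78 identifiers matched RefSeq. Alternatives were pseudocounts of 1 and 10, ratios of 1.5 and 4, scaling to the same median, the highest peak, every gene counted, Mir101c kept and a distance of 5 kb. Python 3.11.15, pandas 2.3.3, numpy 2.4.6 and matplotlib 3.10.9 were used. The members, lists and alternatives were chosen with earlier results of these data known. By rule, every locus is named with its values and every listed gene of the machinery list, and of the neighbours sharing a region those nearest.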

Additional observations from a re-analysis of the deposited data

How the results depend on the processing

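No paired analysis was possible because the study has only a single library in either group. Of 59 loci, 49 had a ratio of at least 2. This became 12 with a ratio of at least 4, 4 with the libraries scaled to the same median, and 8 for the 8 loci with no shared region, a setting chosen after seeing the data. The first is a stricter rule and the last has fewer loci. The count was within 1.5 times of 49 with other pseudocounts, a ratio of 1.5, every gene counted, or Mir101c kept. Over the loci, the median log2 ratio was 1.53, and it moved to 2.11 (pseudocount of 1), 1.15 (pseudocount of 10), 0.12 (scaled libraries), 1.66 (highest peak in place of the IL-2 mean) and 1.80 (no shared regions). Over all listed genes the corresponding medians were 2.00, 1.06, 0.09 and 1.53 for the first 4 of these settings. The count of loci with a region near the start rose from 13 within 1 kb to 39 within 5 kb. Scaling turned 12 loci with a ratio of at least 2 towards control, with log2 ratios of -0.005 at Mir2861, -0.061 at Mir1949, -0.19 at Mir5104, -0.095 at Mir92b, -0.062 at Mir1965, -0.24 at Mir5100, -0.27 at Mir1190, -0.14 at Mir3970, -0.092 at Mir1931, -0.22 at Mir191, -0.02 at Mir1967 and -0.02 at Mir1983. The other 10 of the 22 loci that turned had a ratio under 2 as deposited, and their scaled log2 ratios ran from -0.59 at Mir23a to -0.20 at Mir3079. Among them Mir22 had -0.52, Mir207 had -0.48, Mir1934 had -0.44, Mir1903 had -0.41 and Mir142 had -0.35. Scaling sets the overall difference near 0 by its own construction. What depth limits could not be computed, since the table holds no read counts.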
